A study of Homo sapiens with 6 samples.

Results

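The enzymes that make, balance and degrade deoxynucleotides for DNA replication were followed in mitotic cells with and without activated Ras. The group held 9 genes taken by name from the deposited expression table, RRM1, RRM2, RRM2B, TYMS, TK1, DUT, DCK, CAD and SAMHD1, of 63129 genes listed. All 9 had a row in the table and all 9 passed the filter on low expression described below. DNA replication needs a balanced supply of the 4 deoxynucleotides, most of which is made by ribonucleotide reductase from ribonucleotides. Thymidylate is made separately, by methylation of dUMP or by salvage of thymidine. The mRNAs of several of these enzymes are known to be periodic, rising as cells enter S phase, and TK1 and RRM2 proteins are degraded at mitotic exit.

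RNA sequencing was performed on 6 libraries of ERRAS cells, 3 from uninduced cells (control) and 3 from cells with Ras induced for 4 days. ERRAS cells are early passage IMR90 cells, a line of primary human fibroblasts, that carry H-RasV12 fused to the ligand-binding domain of the estrogen receptor, delivered by a retrovirus. Both groups carried this construct, were grown in 20% fetal calf serum with G418 at 3% oxygen, and were arrested in mitosis with 1 µM DME, an inhibitor of the kinesin Eg5. The groups differed in the inducer, which the sample labels give as 100 nM tamoxifen and the methods of the study as 100 ng/ml 4-hydroxytamoxifen. Detached cells were collected at a mitotic index over 90%. The labels do not say whether the libraries of a group came from separate cultures, but the study states that this experiment was done 3 times independently. The p-values measure the spread between these libraries.

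Expression was given as FPKM, a gene's sequenced fragments divided by its transcript length and by the size of the library. The test, limma on log2(FPKM + 1), covered the 13993 genes whose mean over the 6 libraries reached 1 FPKM, and genes were called altered when the p-value after Benjamini-Hochberg adjustment did not exceed 0.05. Log2 fold changes are Ras-induced minus control on that scale, where changes of weakly expressed genes come out too small. The FPKM table gives no absolute depth, and the alignment statistics of the study were not used here. Relative to control library 1, the steps between low values gave the other libraries a depth of 0.847 to 1.17. HRAS, which reads of the construct can also reach, measured 1174, 1176 and 1140.3 FPKM in control libraries 1, 2 and 3 and 1439, 1847 and 1473 FPKM in the Ras-induced libraries, with no overlap (log2 fold change 0.44, adjusted p = 0.0431 from limma); its call held in 4 of 13 alternative fits. Of 7 fibroblast markers 2, COL1A2 and THY1, were lower (5.67% of all tested genes were), 4 were separated downward and FAP upward (27.1% of all tested genes upward and 12.8% downward), and the summed level of the 7 was 4667 to 5277 FPKM in control and 3078 to 4302 FPKM in Ras-induced libraries. The summed level of 4 endothelial markers stayed at or under 0.138 FPKM (PECAM1 at 0 throughout) and that of 4 leukocyte markers at or under 0.0936 FPKM (CD3E and ITGAM at 0 throughout). Of the epithelial markers, KRT5 and KRT14 were at 7.28 to 18.7 FPKM in both groups, while EPCAM and CDH1 were below the filter.

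Reference promoters of the 3 enzymes that fell and of RRM2, the most abundant of the 9, are shown because these genes are textbook examples of transcription timed to the cell cycle. Each run is the 250 bases before an annotated start in RefSeq (GRCh38.p14), read in the direction of the gene. Capitals mark matches to E2F words (TTTCCCGC, TTTCGCGC, TTTGCCGC or TTTGGCGC), to CCAAT, or to the CHR words TTTGAA and TTCGAA, on either strand. The windows are TYMS at chr18:657403-657652 (plus strand), TK1 at chr17:78187053-78187302 (minus strand), DUT at chr15:48331947-48332196 (plus strand) and RRM2 at chr2:10122489-10122738 (plus strand).
TYMS: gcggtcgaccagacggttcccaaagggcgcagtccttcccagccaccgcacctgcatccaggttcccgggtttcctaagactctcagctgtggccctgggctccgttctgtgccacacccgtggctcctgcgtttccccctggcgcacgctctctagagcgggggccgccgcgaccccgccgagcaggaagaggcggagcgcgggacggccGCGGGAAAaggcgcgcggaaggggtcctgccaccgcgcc
TK1: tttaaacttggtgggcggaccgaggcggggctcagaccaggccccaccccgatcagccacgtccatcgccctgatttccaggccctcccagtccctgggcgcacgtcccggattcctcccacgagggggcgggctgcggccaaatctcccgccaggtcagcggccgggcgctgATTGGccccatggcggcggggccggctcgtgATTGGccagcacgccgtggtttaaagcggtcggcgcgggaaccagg
DUT: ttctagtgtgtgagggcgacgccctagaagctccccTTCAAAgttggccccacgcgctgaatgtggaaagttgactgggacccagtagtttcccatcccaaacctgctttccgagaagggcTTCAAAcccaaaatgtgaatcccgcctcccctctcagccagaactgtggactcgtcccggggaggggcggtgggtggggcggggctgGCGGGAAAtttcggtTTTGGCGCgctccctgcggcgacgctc
RRM2: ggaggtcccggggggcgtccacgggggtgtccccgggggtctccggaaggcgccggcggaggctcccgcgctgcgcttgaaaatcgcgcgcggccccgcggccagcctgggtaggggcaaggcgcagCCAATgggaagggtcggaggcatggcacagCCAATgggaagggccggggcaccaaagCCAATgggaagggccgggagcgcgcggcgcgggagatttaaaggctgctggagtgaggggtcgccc

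The TYMS window held 1 E2F word, 31 bases before the start. DUT held 2 E2F words, 34 and 19 bases before the start, and 2 CHR words farther upstream. TK1 held 2 CCAAT boxes and RRM2 held 3, with no E2F word in either. Of 35116 promoter windows of the same length in the table, 2.79% held an E2F word, 0.122% held at least 2, 32.0% held a CCAAT box, 9.53% held at least 2 and 14.3% held a CHR word. These matches describe the letters of the windows, and no binding was measured here. DUT has 4 windows in the table and TK1 and RRM2 have 2 each, of which the printed ones hold the most matches; the other 3 DUT windows and the other TK1 window held none, and the other RRM2 window held 1 CCAAT box. Among the enzymes not printed, SAMHD1 held 2 CCAAT boxes, RRM1 a CCAAT box and a CHR word, CAD a CCAAT box and DCK no match. Windows were taken for 8 of the 9 genes. Those on chromosome 8, where RRM2B lies, were left out of the search, so none is given for RRM2B.

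TYMS, TK1 and DUT, which act on thymidylate and its precursors, were lower in Ras-induced mitotic cells, with means of 31.2%, 41.9% and 63.8% of control. The mRNAs of ribonucleotide reductase changed less: RRM2 and RRM1 had means of 81.0% and 86.6% of control and neither was called altered. RRM2B, the alternative small subunit, lay above control in every Ras-induced library, at 150.2% of the control mean, but was not called either. Thus 3 of the 9 enzymes were lower and 0 were higher by limma, where 5.67% of all tested genes were lower and 11.0% higher. At an unadjusted p under 0.05, RRM2 and DCK were also lower, making 5, and RRM2B was higher, where 10.7% of all tested genes were lower and 22.9% higher at that threshold. The median log2 fold change of the 9 was -0.31, against 0.10 over all tested genes. By separation of the libraries, 4 of the 9 (TYMS, TK1, DUT and RRM2) had every Ras-induced value under every control value and 1 (RRM2B) had every value above, where 12.8% of all tested genes were separated downward and 27.1% upward. The summed level of the 9 mRNAs was 737 to 756 FPKM in control and 467 to 558 FPKM in Ras-induced libraries. In bulk RNA of this kind, fewer cells with a transcript and less transcript per cell cannot be told apart.

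**Figure D1:**
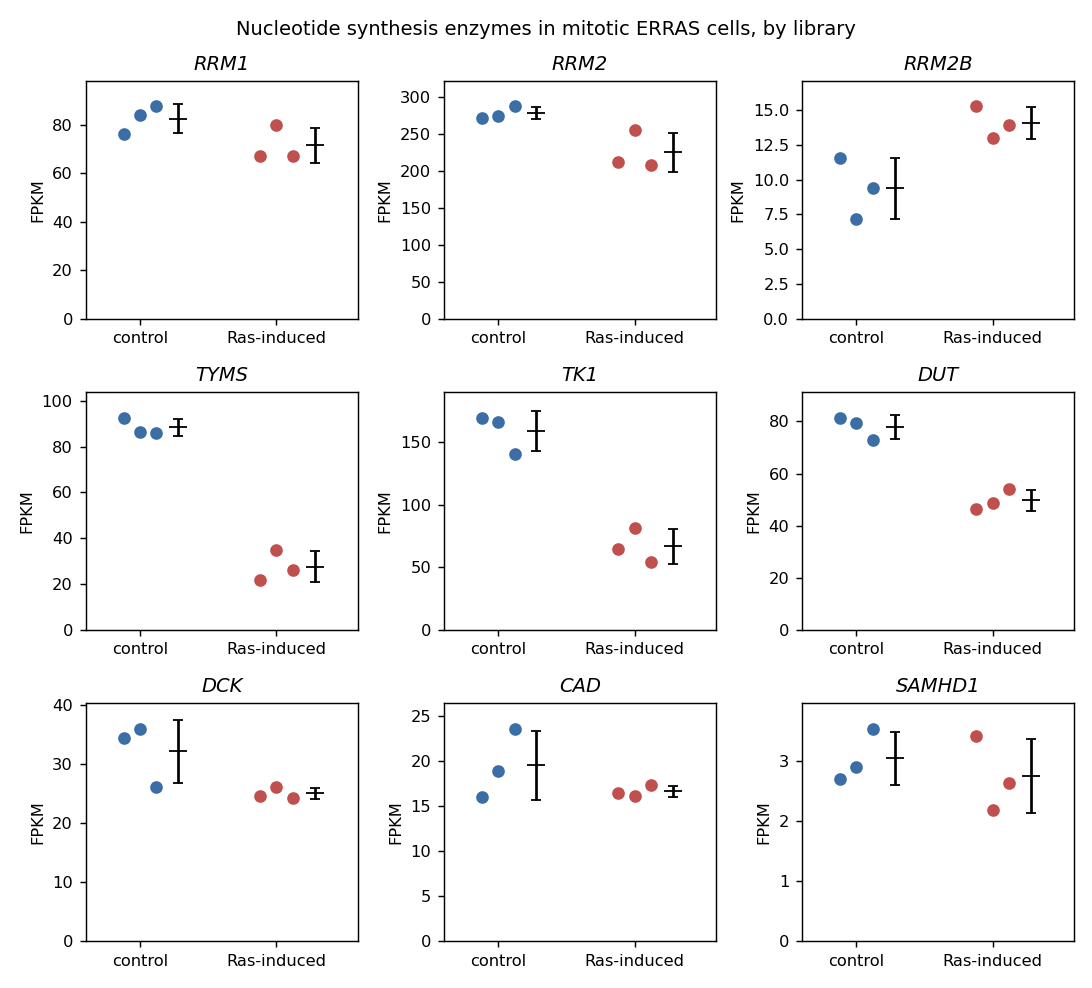
Expression of each enzyme in FPKM (vertical axes, from 0) in the 3 control (blue) and 3 Ras-induced (red) libraries, with the mean and SD in black. TYMS, TK1, DUT and RRM2 lie lower in every Ras-induced library, RRM2B lies higher in every one, and the other 4 overlap.

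The largest change was that of TYMS (ENSG00000176890, GRCh37 chr18:657653-673578, plus strand), the thymidylate synthase that methylates dUMP to dTMP. TYMS measured 92.7, 86.5 and 85.9 FPKM in control libraries 1, 2 and 3 and 21.9, 34.9 and 26.0 FPKM in Ras-induced libraries 1, 2 and 3. The highest Ras-induced value lay well below the lowest control value. The control mean was 88.4 ± 3.73 FPKM (SD, n = 3) and the Ras-induced mean 27.6 ± 6.64 FPKM (SD, n = 3). This was a log2 fold change of -1.67 (95% interval -2.06 to -1.28, adjusted p = 0.0028 from limma). ENOSF1, which overlaps TYMS on the opposite strand, was at 11.6 to 16.2 FPKM with overlapping groups; the library kit is not stated to keep strand, so reads in the shared stretch cannot be assigned to either gene. The 2 TYMS pseudogenes in the table were at 0.

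TK1 (ENSG00000167900, GRCh37 chr17:76170172-76183314, minus strand) is the cytosolic thymidine kinase, which makes dTMP from salvaged thymidine. It was at 169.5, 166 and 141 FPKM in the control libraries and reached 64.3, 81.5 and 53.8 FPKM after Ras induction. Again the groups did not overlap, and the middle Ras-induced library was the highest of its group for TK1, as it was for TYMS. Control averaged 159 ± 15.7 FPKM (SD, n = 3) and Ras-induced cells 66.6 ± 14.0 FPKM (SD, n = 3), for a log2 fold change of -1.26 (95% interval -1.64 to -0.88, adjusted p = 0.00571 from limma). After RRM2 it was the most abundant of the 9 mRNAs in control cells.

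DUT (ENSG00000128951, GRCh37 chr15:48623208-48635570, plus strand) encodes the dUTPase, which hydrolyses dUTP to dUMP and so keeps uracil out of DNA while supplying thymidylate synthase. Control libraries measured 81.5, 79.4 and 72.7 FPKM, and Ras-induced libraries 46.3, 48.6 and 54.2 FPKM. The spread within each group was small against the gap between them. The log2 fold change of DUT was -0.64 (95% interval -0.85 to -0.43, adjusted p = 0.00757 from limma). Of 8 DUT pseudogenes in the table the highest value was 0.729 FPKM. TYMS, TK1 and DUT were each lower and called in 13 of 13 alternative fits, with adjusted p up to 0.0152, 0.0268 and 0.0333 by limma. When a log2 fold change of at least 1 in size was also required, TYMS and TK1 remained and DUT did not.

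**Figure D2:**
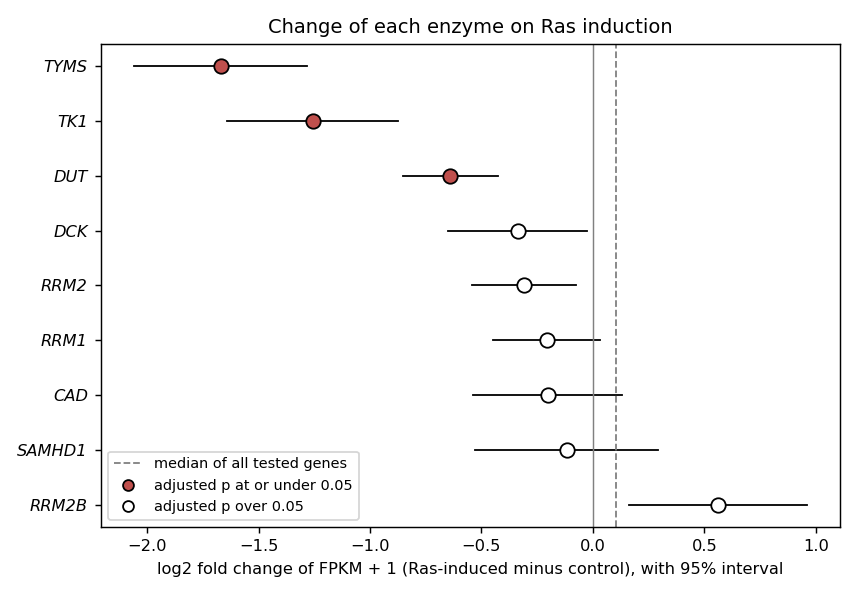
Log2 fold change of FPKM + 1, Ras-induced minus control (horizontal axis), with its 95% interval for each enzyme; filled points were called altered by limma and the dashed line is the median of all tested genes (0.10). TYMS, TK1 and DUT lie farthest to the left, at -1.67, -1.26 and -0.64, and RRM2B lies to the right at 0.56.

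DCK (ENSG00000156136, GRCh37 chr4:71858255-71896631, plus strand), the deoxycytidine kinase that salvages deoxycytidine and purine deoxynucleosides, gave 34.4, 36.0 and 26.1 FPKM in control and 24.6, 26.1 and 24.2 FPKM in Ras-induced libraries. Control library 3 lay within the Ras-induced range and the other controls above it. Its log2 fold change was -0.34 (95% interval -0.65 to -0.03, adjusted p = 0.125 from limma), and it was not called in 11 of 13 alternative fits (adjusted p up to 0.294 from limma). Without control library 3 it was -0.48 with an adjusted p of 0.0194 from limma. MOB1B, which overlaps DCK on the same strand, was at 9.16 to 13.2 FPKM with overlapping groups. Reads in the stretch they share may come from either gene. The ratio of the salvage kinases, TK1 to DCK, was 4.93, 4.62 and 5.40 in control and 2.61, 3.12 and 2.22 in Ras-induced libraries. In an exact two-sided permutation test this gave p = 0.1, the smallest value that 3 libraries against 3 allow.

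Ribonucleotide reductase converts ribonucleoside diphosphates to the deoxy form and is built from the large subunit RRM1 with either RRM2, the small subunit of proliferating cells, or RRM2B, a small subunit known as a p53 target that supplies deoxynucleotides for DNA repair and mitochondrial DNA. RRM2 (ENSG00000171848, GRCh37 chr2:10260825-10351851, plus strand) measured 272, 275 and 287 FPKM in control and 212, 256 and 207 FPKM in Ras-induced libraries. Every Ras-induced value was lower, but library 2 came close to control. Its log2 fold change was -0.31 (95% interval -0.54 to -0.08, adjusted p = 0.0759 from limma); without Ras-induced library 2 it was -0.40 with an adjusted p of 0.0298 from limma, and RRM2 was also called lower after quantile (adjusted p = 0.0269) and upper-quartile scaling (adjusted p = 0.0361). In the other 10 of 13 alternative fits RRM2 was not called, with adjusted p up to 0.223 from limma. The 3 RRM2 pseudogenes in the table reached at most 0.799 FPKM.

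RRM1 (ENSG00000167325, GRCh37 chr11:4115937-4160162, plus strand) was at 76.1, 84.1 and 87.6 FPKM in control and at 67.2, 80.0 and 67.4 FPKM in Ras-induced libraries. Ras-induced library 2 again lay highest in its group, and it overlapped the controls. The log2 fold change of RRM1 was -0.21 (95% interval -0.45 to 0.03, adjusted p = 0.202 from limma). The ratio of RRM2 to RRM1 was 3.57, 3.27 and 3.28 in control and 3.16, 3.19 and 3.08 in Ras-induced libraries, a difference of -0.10 in mean log2 (exact two-sided permutation p = 0.1, the smallest possible). This was the smallest difference of the ratios between enzymes examined here.

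RRM2B (ENSG00000048392) was the only enzyme of the 9 with a positive log2 fold change. It measured 11.6, 7.14 and 9.39 FPKM in control and 15.3, 13.0 and 14.0 FPKM in Ras-induced libraries, without overlap. The control libraries spread more widely than the Ras-induced ones, with library 1 the highest. The log2 fold change was 0.56 (95% interval 0.16 to 0.96, adjusted p = 0.0657 from limma). Without control library 1 it was 0.71 with an adjusted p of 0.0468 from limma, and the call was not made when any other single library was left out (adjusted p up to 0.164 over 13 alternative fits).

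As a percentage of RRM2, RRM2B stood at 4.26%, 2.60% and 3.27% in control libraries and at 7.19%, 5.08% and 6.73% in Ras-induced libraries. This ratio is taken within a library and does not depend on the scaling between libraries. It was 1.89-fold higher after Ras induction (difference in mean log2 0.92, exact two-sided permutation p = 0.1, the smallest that the design allows). RRM2 remained the far more abundant small subunit mRNA in each of the 6 libraries. Of 20 tested genes generally known as p53 targets, 6 were higher and 0 lower by limma (7 and 1 at an unadjusted p under 0.05), with a median log2 fold change of 0.16. Over all tested genes 11.0% were higher and 5.67% lower (22.9% and 10.7% unadjusted). In the alternative fits 3 to 7 of the p53 targets tested were higher and 0 to 1 lower, and the number tested varied with the filter. CDKN1A, the p21 inhibitor of cyclin-dependent kinases, named here after its values were seen, was at 4.58, 3.91 and 5.54 FPKM in control and at 31.0, 8.24 and 14.6 FPKM in Ras-induced libraries (adjusted p = 0.0496 from limma), and its call held in 4 of 13 alternative fits (adjusted p up to 0.132 from limma).

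**Figure D3:**
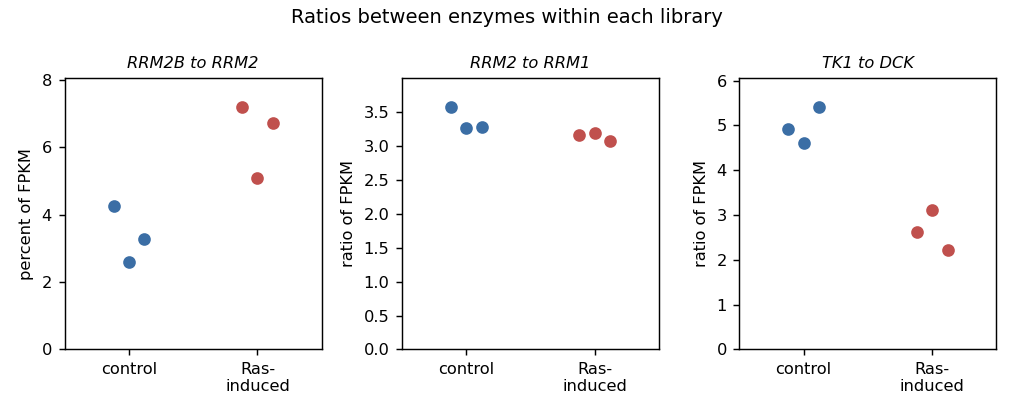
Ratios of FPKM within each of the 3 control (blue) and 3 Ras-induced (red) libraries, all axes from 0, with RRM2B to RRM2 as a percentage. RRM2B to RRM2 was higher in every Ras-induced library, TK1 to DCK was lower, and RRM2 to RRM1 differed least.

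CAD (ENSG00000084774, GRCh37 chr2:27440237-27466811, plus strand), the multifunctional enzyme that opens de novo pyrimidine synthesis, measured 16.1, 18.9 and 23.6 FPKM in control and 16.5, 16.1 and 17.3 FPKM in Ras-induced libraries. The groups overlapped, and the control libraries held both the lowest and the highest value. Its log2 fold change was -0.20 (95% interval -0.54 to 0.13, adjusted p = 0.359 from limma). SAMHD1 (ENSG00000101347, GRCh37 chr20:35518632-35580296, minus strand), the dNTP hydrolase that lowers the pool outside S phase, was the least abundant of the 9, at 2.71, 2.90 and 3.54 FPKM in control and 3.42, 2.19 and 2.64 FPKM in Ras-induced libraries. Its groups overlapped as well, with a log2 fold change of -0.12 (95% interval -0.53 to 0.29, adjusted p = 0.670 from limma).

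FPKM is scaled for length, so the levels of the 9 mRNAs can be ordered within a group. In control cells the order was RRM2, TK1, TYMS, RRM1, DUT, DCK, CAD, RRM2B and SAMHD1. The ranges of TYMS and RRM1 overlapped there, as did those of RRM1 and DUT, so these neighbours did not differ beyond their spread. After Ras induction the order was RRM2, RRM1, TK1, DUT, TYMS, DCK, CAD, RRM2B and SAMHD1, with overlapping ranges for RRM1 and TK1, TK1 and DUT, and TYMS and DCK. TYMS thus came down to the level of DCK, at 21.9 to 34.9 FPKM beside 24.2 to 26.1 FPKM, whereas in control cells it lay at 85.9 to 92.7 FPKM, far above the 26.1 to 36.0 FPKM of DCK. RRM2 led the order in both groups.

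Of 52 other tested genes of nucleotide metabolism, sorted by role, 12 were higher and 0 lower by limma (19 and 2 at an unadjusted p under 0.05), with a median log2 fold change of 0.20. The shares over all tested genes were 11.0% higher and 5.67% lower (22.9% and 10.7% unadjusted). None of the 4 genes of de novo pyrimidine synthesis was called by limma, nor did any reach an unadjusted p under 0.05 (median 0.09).

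Of 4 genes listed as helpers of ribonucleotide reduction, 3 were higher, where 11.0% of all tested genes were. GLRX, a glutaredoxin, measured 28.7, 26.1 and 26.6 FPKM in control and 92.5, 93.0 and 89.5 FPKM in Ras-induced libraries (log2 fold change 1.72, adjusted p = 0.000148 from limma). The mitochondrial glutaredoxin GLRX2 rose by a log2 fold change of 0.86 (adjusted p = 0.00409 from limma), and the thioredoxin reductase TXNRD1 had one of 0.70 (adjusted p = 0.0400 from limma). These proteins also serve many other redox reactions of the cell.

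The counts by role are small and are to be read against the 11.0% of all tested genes that were higher. Among 8 salvage genes 2 were higher, the adenine phosphoribosyltransferase APRT (log2 fold change 0.72, adjusted p = 0.00387 from limma) and the mitochondrial deoxyguanosine kinase DGUOK (0.33). Of 10 nucleotide kinases 2 were higher, the nucleoside diphosphate kinases NME1 (0.74, adjusted p = 0.0125 from limma) and NME3 (0.60). De novo purine synthesis had 2 of 12 higher, ATIC (0.57) and ADSS (0.27). Of 14 genes that break down or clean the pool 3 were higher, the nucleotidase NT5C (0.41), the inosine triphosphatase ITPA (0.40) and NUDT5 (0.40). Only GLRX, GLRX2, APRT and NME1 of these 12 altered genes kept their call in 13 of 13 alternative fits, and after quantile or upper-quartile scaling 5 of the 52 were higher and 2, PRPS1 and NT5C2, lower. Over all tested genes 7.46% were higher and 7.93% lower after quantile scaling, and 6.58% and 7.87% after upper-quartile scaling. The direction of each of the 12 was unchanged in those fits.

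**Figure D4:**
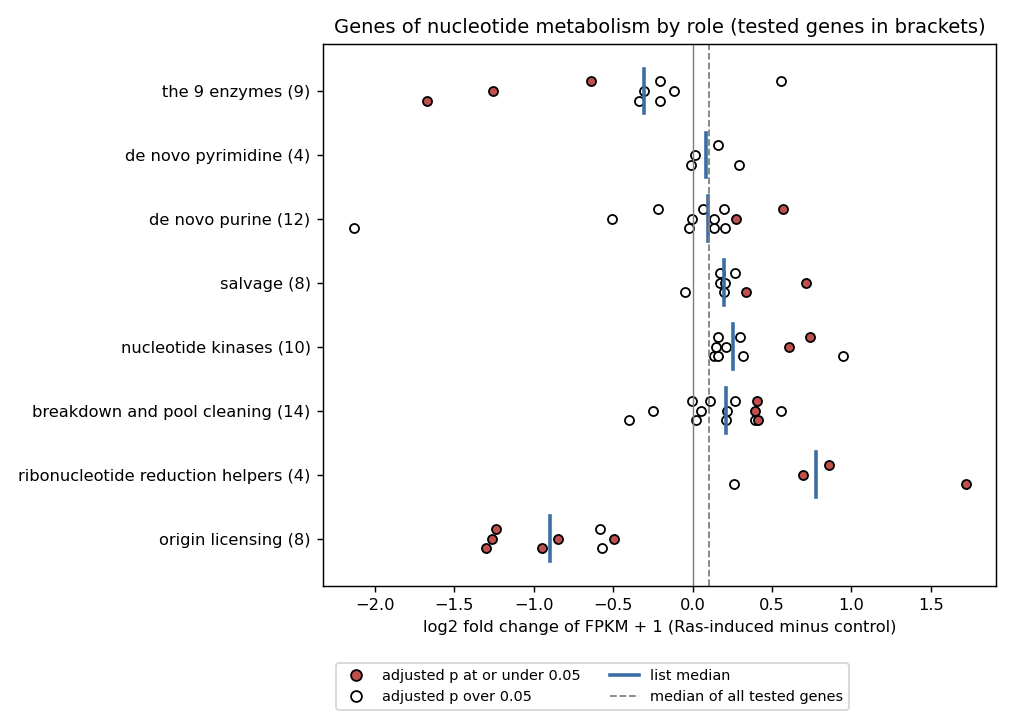
Log2 fold change of FPKM + 1, Ras-induced minus control (horizontal axis), of each tested gene by role; red points were called altered by limma, blue bars are list medians and the dashed line is the median of all tested genes (0.10). TYMS, TK1 and DUT lie at the left of the top line, and 6 of 8 origin licensing genes were lower at the bottom. The point at -2.13 is PAICS, listed at 0 in 1 Ras-induced library.

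The origin licensing genes encode subunits of the replicative helicase and proteins that load it, and share periodic expression with TYMS and TK1. Of the 8, 6 were lower and 0 higher by limma (8 and 0 at an unadjusted p under 0.05). Over all tested genes 5.67% were lower, or 10.7% unadjusted. The median log2 fold change of the origin licensing genes was -0.90 (-0.31 for the 9 enzymes). Whether the lists differ was not tested. Of the 9 mitotic markers, 6 were lower (KIF20A, TOP2A, CENPF, CCNB2, BUB1 and PLK1), all 9 were separated downward (5.67% and 12.8% of all tested genes), and their summed level was 1961 to 2023 FPKM in control and 1547 to 1714 FPKM in Ras-induced libraries. The call of KIF20A held in 13 of 13 alternative fits, those of the other 5 in 3 to 10, and 1 to 7 of the 9 markers were lower in those fits. The part of this shift in the lower levels of TYMS, TK1 and DUT was not tested. The median log2 fold change of the mitotic markers was -0.30.

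Over the 6 libraries, the genes whose log2(FPKM + 1) followed RRM2 most closely were PCBP3 (Pearson r = 0.997), LEPRE1 (0.994), RP11-4K3__A.5 (0.992), POLD1 (0.991) and GPC1 (0.990). The closest to RRM2B were ERRFI1 (0.995), SNX25 (0.990), MYO5A (0.990), ERO1L (0.989) and ABCG2 (0.987). These were picked as the highest of all tested genes, over libraries that share the group difference, and are given as a description.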

How the data were processed

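The authors trimmed paired-end reads with Trim Galore 0.3.0, used TopHat2 for alignment (hg19, with Ensembl splice junctions), and deposited FPKM values per gene and library made with Cufflinks. Replicates were not pooled. The columns give a group and a number but not a sample, so they were used as replicates of their group. A stray header line, 18 unnamed columns and 120 rows with more than 6 values were left out. A deposited Cuffdiff comparison (group FPKM, fold changes, p-values and q-values) was not used.

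Genes averaging 1 FPKM or more were tested with limma 3.58.1 in R 4.3.3 (lmFit, eBayes with trend, two-sided) on log2(FPKM + 1), with Benjamini-Hochberg adjustment over 13993 genes. FPKM are not counts, so no count model was used. The fit was tested on simulated data. Ratios were compared by exact permutation over libraries. Gene positions are from GENCODE lifted to GRCh37. Named genes were the 9 enzymes, HRAS, up to 3 altered genes with the largest fold change per role list, and the 5 genes closest to RRM2 and to RRM2B by correlation; the cell type and mitotic markers and genes overlapping an enzyme were named outside this rule, and PAICS, CDKN1A, PRPS1 and NT5C2 were named, and the ratios of TK1 to DCK and RRM2 to RRM1 added, after their values were seen. The enzymes and lists were chosen with earlier results of these data known. Alternatives were another pseudocount, other filters, 2 scalings, no trend, a replicate block, a stricter call and each library left out; counts for the other pathway, origin licensing, mitotic and p53 lists under them were added after seeing the data. Precision is limited by 3 libraries per group and absolute depth was not used here. Some genes of the pathway and a role list are not reported here, and the counts leave them out.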

Additional observations from a re-analysis of the deposited data

How the results depend on the processing

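The 9 enzymes kept their direction in 116 of 116 refits and their call in 109. Of all tested genes 2336 were altered (1543 higher, 793 lower), 1518 without a filter on low values, 548 when log2 fold changes also had to reach 1 in size, and 998 to 1956 with a library left out. Quantile scaling gave 1044 higher and 1109 lower genes and a median log2 fold change of 0.01, and upper-quartile scaling 921 and 1101; the cause was not tested. With upper-quartile scaling 5 of the 9 enzymes were lower (TYMS, TK1, DUT, RRM2 and DCK). The number of enzymes higher ranged from 0 to 1 with a library left out, and was 1 with the replicate number as a block (RRM2B, adjusted p = 0.0381 from limma). The block left 2310 genes altered. Same-numbered libraries had correlations of deviations of -0.0027, 0.0433 and 0.0481, and library 1 did not correlate best with its own number, so the numbers were not taken as pairs. PAICS, never called, went from a log2 fold change of -2.13 to 0.05 without Ras-induced library 2, where it is listed at 0. SAMHD1 was not tested at a mean of at least 5 FPKM. Without absolute depth, which was not used here, no counting error is given for low values such as those of SAMHD1.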

Other observations

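PAICS, a bifunctional enzyme of purine synthesis, was listed at 80.3, 93.4 and 94.8 FPKM in control libraries 1, 2 and 3, at 87.9 and 97.2 FPKM in Ras-induced libraries 1 and 3, and at 0 in Ras-induced library 2. An exact 0 in a table without counts can be a failed estimate, and the value was kept in the test, where PAICS was not called.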
